A study of Mus musculus with 6 samples.

Results

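To see how the loss of Prmt9 affects the UFMylation pathway, its 7 genes were followed in hippocampus RNA-seq of Prmt9 KO and WT mice. The genes were taken by their symbols: Ufm1, Ufc1, Ufl1, Ddrgk1, Cdk5rap3, Ufsp1 and Ufsp2. All 7 were found among the 36008 genes in the deposited table of gene TPM. They carry 41 of the 116710 annotated transcripts with a value in each mouse. TPM is a level scaled to transcript length and to the library, so TPM of different genes can be set side by side.

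UFM1 is a small ubiquitin-like protein that is joined to lysines of other proteins. It is made as a precursor and trimmed by the cysteine proteases UFSP1 and UFSP2, carried by the conjugating enzyme UFC1 and transferred by the ligase UFL1, which works at the membrane of the endoplasmic reticulum (ER) together with DDRGK1 and CDK5RAP3. UFSP2 also takes UFM1 off its targets, of which the ribosomal protein RPL26 on ER-bound ribosomes is the best known, and inherited defects in several of these genes impair brain development in humans.

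The samples are polyadenylated RNA from the hippocampus of 2-week-old female B6J mice, 3 of them WT and 3 Prmt9 KO, with controls from the same litters. PRMT9 is an arginine methyltransferase whose main substrate is SF3B2, a part of the U2 snRNP that recognizes the branch site of introns. In the KO, a floxed Prmt9 exon had been removed in the germline by CMV-Cre, so every cell of the body lacks it, and a change in hippocampus cannot be assigned to 1 cell type. In bulk tissue, fewer cells of a type and less RNA per cell cannot be told apart.

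The estimated counts summed to between 194098391 and 286771677 per mouse. WT replicate 1 had the lowest sum, and 37.4% of the transcripts had a count of 0 in it. In the other mice this share was 22.8% to 24.8%, the highest being that of KO replicate 1. Prmt9 itself had 11.8, 15.2 and 15.0 TPM in WT replicates 1 to 3 and 3.93, 4.61 and 4.67 TPM in the Prmt9 KO replicates. The 2 mice numbered 1, one of each genotype, stood apart from the other 4, on a first principal component (gene counts) that held 71.8% of the variance. Their oligodendrocyte markers summed to 1830 TPM in WT and 936 TPM in KO, against 7034 to 10118 TPM in the other mice, and their markers of hippocampal excitatory neurons to 1738 and 1839 TPM against 2834 to 3008. Choroid plexus markers ranged from 606 to 7254 TPM and erythrocyte markers from 991 to 5978 TPM. For all 11 marker lists the genotypes overlapped, no marker stayed below 1 TPM in every mouse, and the part of tissue makeup in the results below was not tested. Because of these 2 mice, the main results are also given without them.

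No gene of the pathway passed the test for a change in level. Of the 7 members 0 were called by edgeR's quasi-likelihood test (limits of 0.01 for the adjusted p and 1.5 for the fold change), and 0.0% of the 20335 genes tested were. Prmt9, at 31.5% of the WT TPM, was not called either (log2 fold change -1.71, SE 0.10, adjusted p = 0.0327 in edgeR), so a call of 0 members says little about smaller changes. DESeq2 called 3 genes, Prmt9 among them (adjusted p = 9.4e-61 in DESeq2) and 0 members. At an unadjusted p below 0.05 the counts were 0 of 7 members and 1.23% of all genes. The median log2 fold change of the members was -0.11, beside -0.01 for all genes, and without the mice numbered 1 it was 0.03 beside -0.00. The groups did not overlap in TPM for 0 of the 7 members and for 5.88% of the 14188 genes with at least 1 TPM in every mouse.

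**Figure D1:**
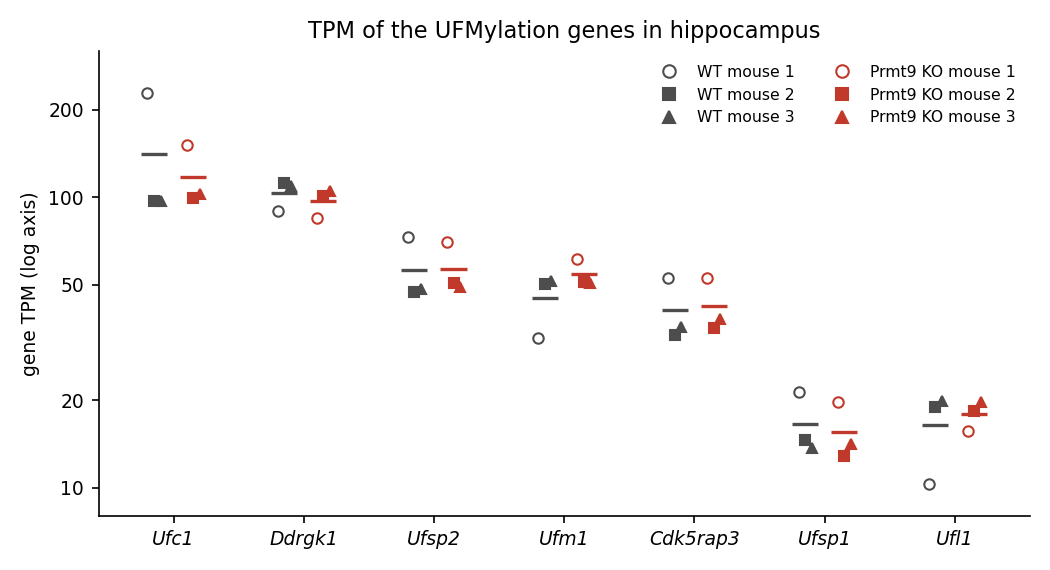
Gene TPM on a log axis of the 7 UFMylation genes in each mouse (grey, WT; red, Prmt9 KO; bars, means of 3 mice; open circles, the mice numbered 1). WT and KO points overlap for every gene, and for most genes the open circles lie away from the filled symbols of both genotypes.

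The modifier gene Ufm1 (ENSMUSG00000027746, chr3:53853376-53863830, minus strand, GRCm38) had 32.7, 50.4 and 51.7 TPM in the WT mice and 61.5, 51.0 and 50.5 TPM in the KO mice. WT replicate 1 was the lowest and KO replicate 1 the highest of the 6, and the other 4 mice lay within a narrow range. Its edgeR log2 fold change was -0.04 with an SE of 0.15 (adjusted p = 1), although its mean KO TPM was 121% of WT, and without the mice numbered 1 the TPM was 99.5% of WT.

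Ufc1, the conjugating enzyme (ENSMUSG00000062963, chr1:171288563-171295024, minus strand), had 229, 97.1 and 96.9 TPM in WT and 152, 99.5 and 102 TPM in KO. Both mice numbered 1 were high, on average 1.92 times the other 4. The log2 fold change of Ufc1 was -0.38 (SE 0.48) in edgeR and became 0.07 without these mice, so its direction rested on them.

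The ligase gene Ufl1 (ENSMUSG00000040359, chr4:25248600-25281821, minus strand) had 10.3, 19.0 and 19.8 TPM in WT and 15.6, 18.4 and 19.8 TPM in KO. Here the mice numbered 1 were the lowest of their groups, at 0.674 times the mean of the others. Its log2 fold change was 0.01 (SE 0.11), the one nearest to 0 among the members.

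The ER membrane partner Ddrgk1 (ENSMUSG00000068290, chr2:130653960-130664659, minus strand) had 89.5, 112 and 109 TPM in WT and 85.2, 101 and 105 TPM in KO. Cdk5rap3, which binds UFL1 and DDRGK1 (ENSMUSG00000018669, chr11:96907426-96916496, minus strand), had 52.8, 33.7 and 35.8 TPM in WT and 52.8, 35.5 and 38.2 TPM in KO. Their log2 fold changes were -0.16 (SE 0.10) and -0.07 (SE 0.32) in edgeR. In both genes the mice numbered 1 of both genotypes lay on the same side of the other 4.

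The protease gene Ufsp1 (ENSMUSG00000051502, chr5:137294629-137295665, plus strand), which has a single annotated transcript, had 21.4, 14.5 and 13.7 TPM in WT and 19.7, 12.9 and 14.1 TPM in KO (log2 fold change -0.18, SE 0.34). Ufsp2 (ENSMUSG00000031634, chr8:45975528-45996958, plus strand) had 72.9, 47.2 and 48.2 TPM in WT and 69.9, 50.9 and 49.3 TPM in KO (log2 fold change -0.11, SE 0.35). Taken over all its transcripts, Ufsp2 in KO was 101% of WT. Prmt9 lies on the same chromosome as Ufsp2 (chr8:77549397-77581338, plus strand), and the part of this linkage in the Ufsp2 values was not tested.

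Ordered by their mean TPM in WT, the genes ran from Ufc1 (141) through Ddrgk1 (103.5), Ufsp2 (56.1), Ufm1 (44.9) and Cdk5rap3 (40.8) to Ufsp1 (16.5) and Ufl1 (16.4). The ranges of neighbours in this order were apart only between Ddrgk1 and Ufsp2 and between Cdk5rap3 and Ufsp1. In KO the order was the same except that Ufl1 (17.9) came before Ufsp1 (15.6), and these overlapped.

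While the level of Ufsp2 overlapped between the genotypes, the kind of Ufsp2 transcript did not. The coding form (ENSMUST00000034051.6), with 12 exons and a reading frame of 461 codons, removes every intron. The retaining form (ENSMUST00000130412.7), annotated as a target of nonsense-mediated decay, keeps an intron of 80 bases between exons 3 and 4. All its other inner splice sites are those of the coding form, and its ends differ by 6 bases at the start and 101 bases at the end. The intron, which carries the difference between the 2 forms, is shown here 5′ to 3′ in capitals, with 20 exon bases in lower case on both sides (chr8:45980473-45980592, plus strand, GRCm38), followed by the junction that its removal makes, with the joined exon bases in capitals.
Intron retained: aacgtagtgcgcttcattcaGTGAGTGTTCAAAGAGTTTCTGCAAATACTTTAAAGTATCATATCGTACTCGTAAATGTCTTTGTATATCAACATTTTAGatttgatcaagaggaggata
Intron removed: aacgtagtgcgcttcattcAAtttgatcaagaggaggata

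The reading frame of Ufsp2 runs into a stop codon at once when this intron is kept. The stop codon TGA begins at base 2 of the intron (chr8:45980494-45980496) and thus overlaps the donor site. It follows 81 codons, 17.6% of the coding frame, and 8 exon junctions lie downstream of it, the last at a distance of 1133 bases. An exon junction well downstream of a stop codon is the feature by which such transcripts are annotated for nonsense-mediated decay. The intron begins with GT and ends with AG, as do 97.1% of the 7629 retained introns whose sequence could be read from the annotated transcripts. It was short and poor in G and C: its length of 80 bases compares with a median of 263 (7.08% of these introns are as short or shorter), and its GC content of 30.0% with a median of 52.4% (1.18% have a lower one). The share of pyrimidines in the 20 bases before the final AG was 70.0%, near the median of 75.0%.

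An upstream-donor form (ENSMUST00000210081.1) leaves exon 3 at a donor 25 bases upstream. Both donors are shown with their GT in capitals, the alternative one first (chr8:45980448-45980498, plus strand).
Ufsp2 donors: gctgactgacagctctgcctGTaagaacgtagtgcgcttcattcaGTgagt
With the RT-PCR primers of the study for this gene, shown next because the 3 forms differ in length between them, the coding form would give a product of 242 bases, the retaining form one of 322 bases and the upstream-donor form one of 217 bases.
Forward primer: tgtttatcaagaacgcactga
Reverse primer: cgtgtcagttaactttttgtc

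**Figure D2:**
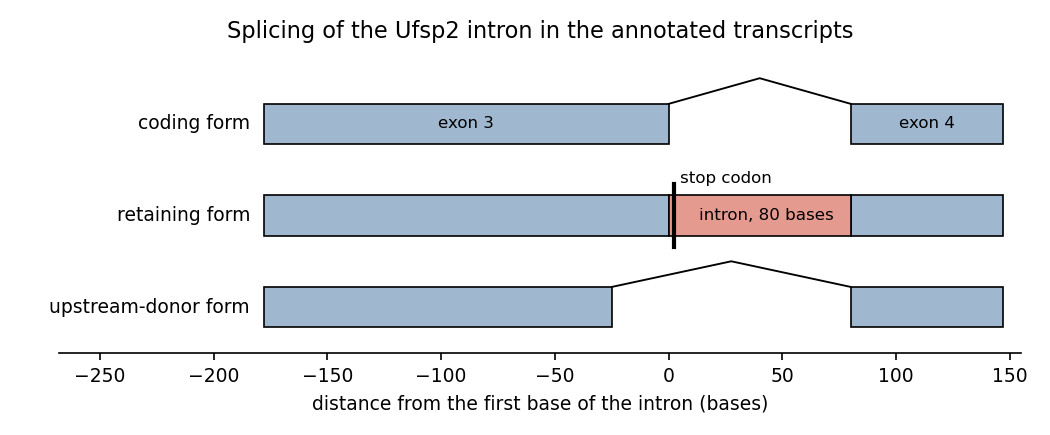
Annotated Ufsp2 transcripts around the retained intron, to scale, with the distance in bases from the first intron base on the x axis (blue, exon; red, retained intron; bent line, intron removed; black bar, stop codon). The retaining form keeps the 80 bases and meets a stop codon at their start, and the upstream-donor form leaves exon 3 at a donor 25 bases upstream.

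The retaining form of Ufsp2 had 14.0, 7.18 and 6.69 TPM in the WT mice and 26.3, 17.7 and 18.7 TPM in the KO mice. Every KO mouse had more of it than every WT mouse, although WT replicate 1 was well above the other WT mice. The mean was 9.28 ± 4.07 in WT and 20.9 ± 4.69 in KO (SD, n = 3 each), a ratio of 2.25, and 2.62 without the mice numbered 1. The exact two-sided permutation test gave p = 0.1, the smallest value that 3 mice against 3 allow. Of the 30 member transcripts with a mean of at least 1 TPM in a genotype, it was the only one whose groups did not overlap, that is 1 of 30, where 5.14% of all transcripts stood higher in KO and 7.38% in either direction. In edgeR, its log2 fold change was 1.03 (SE 0.49, adjusted p = 1), and 0 of the 38 member transcripts tested were called or had an unadjusted p below 0.05, beside 0.0% called and 1.61% with such a p among all 75682. DESeq2 called 110 transcripts, with 0 of the members among them. Without the mice numbered 1 the log2 fold change of the retaining form was 1.40 (unadjusted p = 1.8e-05, adjusted p = 0.129 in edgeR). Again 0 member transcripts were called. Some other transcripts of Ufsp2, Cdk5rap3 and Ddrgk1 also had an unadjusted p below 0.05 there, as did 7492 of all 77144 tested.

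Of the coding form, the KO mice had the lower mean. It had 50.4, 30.6 and 31.4 TPM in WT and 33.8, 22.1 and 20.6 TPM in KO. Within each number the KO mouse had the lower value, by 16.6, 8.59 and 10.8 TPM, but the groups overlapped because KO replicate 1 lay above WT replicates 2 and 3. The KO mean was 68.0% of WT (68.7% without the mice numbered 1), with an exact permutation p = 0.3, and the log2 fold change was -0.66 (SE 0.43, adjusted p = 1 in edgeR). The estimated counts behind these values were 4214 to 9528 for the coding form and 1189 to 4998 for the retaining form.

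Added together, the 2 forms overlapped between the genotypes. Their sum was 64.3, 37.8 and 38.1 TPM in WT and 60.04, 39.7 and 39.3 TPM in KO, so that KO had 99.2% of WT. They made up 82.5 ± 5.0% of the Ufsp2 TPM in WT and 81.2 ± 4.1% in KO (SD, n = 3 each). The ratio of the retaining to the coding form was 0.277, 0.234 and 0.213 in WT and 0.778, 0.801 and 0.911 in KO. The mice numbered 1, which differed most from the others in TPM, lay close to their own genotype in this ratio, and the lowest KO ratio was well above the highest WT ratio. The mean ratio was 0.242 ± 0.033 in WT and 0.830 ± 0.071 in KO (SD, n = 3 each), 3.44 times as high (exact permutation p = 0.1), and 3.83 times without the mice numbered 1.

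**Figure D3:**
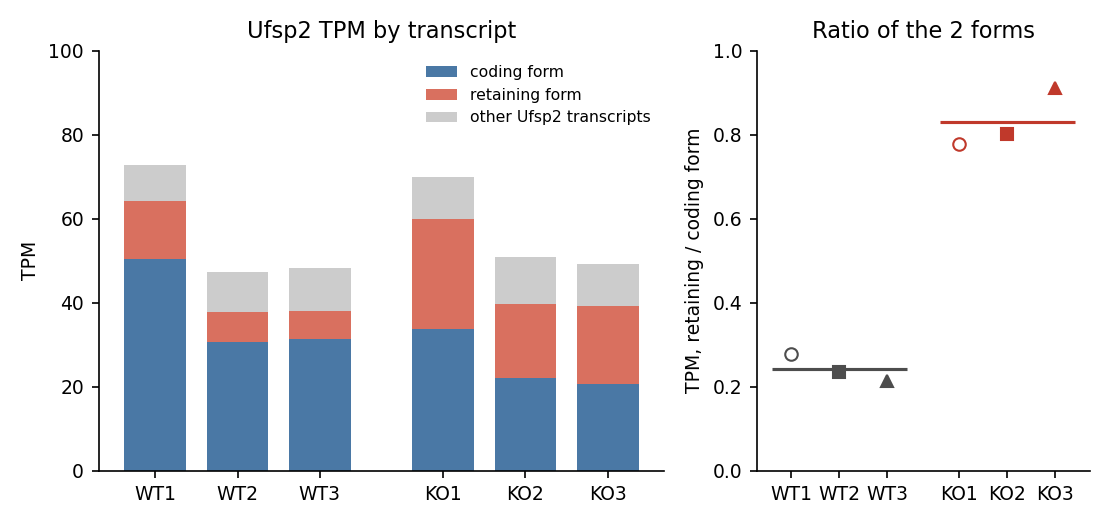
Left, TPM of the coding form (blue), the retaining form (red) and all other Ufsp2 transcripts (grey) stacked for each mouse. Right, the ratio of retaining to coding TPM in each mouse with the genotype means as lines. The height of the bars overlaps between genotypes, whereas the ratio lies between 0.213 and 0.277 in WT and between 0.778 and 0.911 in KO.

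The other Ufsp2 transcripts showed no such separation. The upstream-donor form had 3.41, 2.84 and 3.15 TPM in WT and 4.37, 3.77 and 2.75 TPM in KO, so its groups overlapped. A transcript annotated as a retained intron (ENSMUST00000151983.1) had 2.72 ± 0.23 TPM in WT and 3.22 ± 0.38 TPM in KO (SD, n = 3 each), and another annotated likewise (ENSMUST00000210608.1) had 1.11 ± 0.32 and 1.30 ± 0.35 TPM (SD, n = 3 each). Both overlapped between the genotypes.

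The share of each gene's TPM in protein-coding transcripts was then compared over the pathway. For Ufsp2 it was 69.5%, 66.2% and 67.4% in the WT mice and 49.5%, 44.7% and 42.6% in the KO mice. Every KO mouse was below the lowest WT mouse. The mean was 67.7 ± 1.6% in WT and 45.6 ± 3.6% in KO (SD, n = 3 each), a difference of -22.1 percentage points (exact permutation p = 0.1), and of -23.2 points without the mice numbered 1. Between mice of the same number the difference was -19.9, -21.5 and -24.8 points. When transcripts annotated for nonsense-mediated decay were counted with the coding ones, the difference of Ufsp2 was -1.43 points.

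Of the other members, 5 had coding and other transcripts to compare, and in all 5 the groups overlapped. Hence 1 of 6 members stood lower in KO without overlap, beside 5.07% of the 10740 genes for which the share could be computed, whose median difference was -0.16 points. Over all these genes 6, Ufsp2 among them, had a share that was lower by at least as much as that of Ufsp2.

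The nearest to Ufsp2 in size of difference was Ufm1, at -9.04 points, with 64.5%, 39.1% and 39.2% in WT and 35.0%, 40.9% and 39.7% in KO. This rested on WT replicate 1, and without the mice numbered 1 the difference was 1.16 points. The mouse was low in a Ufm1 transcript of 381 bases annotated as a retained intron (ENSMUST00000148338.7), which had 11.3, 30.0 and 30.4 TPM in WT and 38.7, 29.1 and 29.5 TPM in KO. The coding Ufm1 transcript of 4890 bases (ENSMUST00000146598.7) varied little, with 20.7, 18.9 and 19.2 TPM in WT and 20.5, 19.9 and 19.2 TPM in KO. The short transcript held 283 to 1073 estimated counts per mouse and the long one 11186 to 14630. With shares taken from estimated counts, the Ufm1 difference was -1.86 points.

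The coding share of the enzymes was 93.3 ± 2.6% in WT and 92.8 ± 1.7% in KO for Ufc1 and 74.9 ± 14.0% and 70.5 ± 6.4% for Ufl1 (SD, n = 3 each). That of the ligase partners was 74.5 ± 4.3% and 74.8 ± 0.8% for Ddrgk1 and 73.7 ± 1.7% and 73.4 ± 0.9% for Cdk5rap3 (SD, n = 3 each). For these 4 genes the difference of the means was smaller than the SD of the WT mice. Without the mice numbered 1, the mean TPM of the main coding transcripts behind these shares was in KO at 106% of WT for Ufc1, 102% for Ufl1, 100.02% for Ddrgk1 and 101% for Cdk5rap3.

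**Figure D4:**
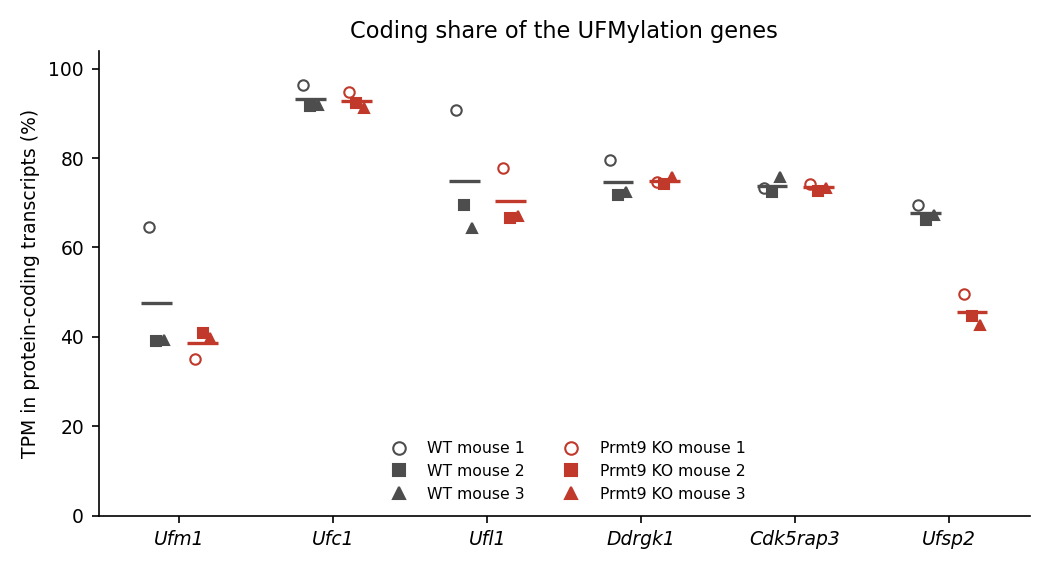
Percentage of each gene's TPM in protein-coding transcripts in every mouse (grey, WT; red, Prmt9 KO; bars, means of 3 mice; open circles, the mice numbered 1). Ufsp1 is left out because its only transcript is coding. Ufsp2 is the one gene whose KO points, from 42.6% to 49.5%, lie below all of its WT points.

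Splicing events were built from the annotated exons, and the PSI of an event is the TPM of the transcripts that include the sequence divided by the TPM of those that include or exclude it. The members had 28 such events, of which 14 were expressed and variable enough to be tested, 9 of them retained introns (RI). The 3 events whose groups did not overlap were all in Ufsp2, which is 3 of 14 beside 10.7% of the 24067 events tested. The same 3 events had an unadjusted p below 0.05 in limma, beside 3.2% of all events. They share transcripts and so are not 3 separate observations. By limma none of the 14 was called (limits of 0.01 for the adjusted p and 0.05 for the PSI difference), and 0.0% of all events were. At the same limits the study reported altered events in many genes, with a method that counts reads. The absence of a call here is therefore no sign of unchanged splicing.

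The 80-base intron of Ufsp2 was retained at a PSI of 0.212, 0.181 and 0.169 in the WT mice and 0.431, 0.429 and 0.459 in KO. Its log2 ratio of retaining to removing transcripts was 1.76 higher in KO (SE 0.17, unadjusted p = 4.4e-05, adjusted p = 0.762 in limma). The PSI difference of 0.252 was 0.268 without the mice numbered 1, and 0.219, 0.247 and 0.290 between mice of the same number. Set against the upstream-donor form alone, the retention of the 105 bases from the upstream donor gave a PSI of 0.804, 0.716 and 0.680 in the WT mice and 0.858, 0.824 and 0.872 in KO (unadjusted p = 0.0154 in limma). The share of the main donor against the upstream one was lower in KO, at 0.938, 0.919 and 0.913 in WT and 0.888, 0.862 and 0.889 in KO (unadjusted p = 0.0442 in limma). All 3 Ufsp2 events thus kept the genotypes apart in the 6 mice, the largest difference being that of the 80-base intron.

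The RI events of the other members overlapped between the genotypes. In Cdk5rap3 the introns of 312, 176 and 187 bases had PSI differences of -0.02, 0.00 and 0.02. In Ufc1 the PSI of a 93-base intron was 0.056 ± 0.010 in WT and 0.044 ± 0.006 in KO (SD, n = 3 each), and a 260-base intron one of 0.428 ± 0.134 and 0.506 ± 0.063 (SD, n = 3 each). Ufl1 had an intron of 456 bases at 0.581 ± 0.185 and 0.513 ± 0.108 and one of 1385 bases at 0.129 ± 0.032 and 0.130 ± 0.019 (SD, n = 3 each). No intron of these genes kept the genotypes apart.

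Among the 7668 retained introns tested in all genes, the median PSI difference was 0.0024, 451 (5.88%) stood higher in KO without overlap and 306 lower. The Ufsp2 intron was 1 of 8 with a difference of 0.252 or more, and among the 1428 introns of at most 100 bases it was 1 of 5. Its difference was known before from these data, so this rank is a description.

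**Figure D5:**
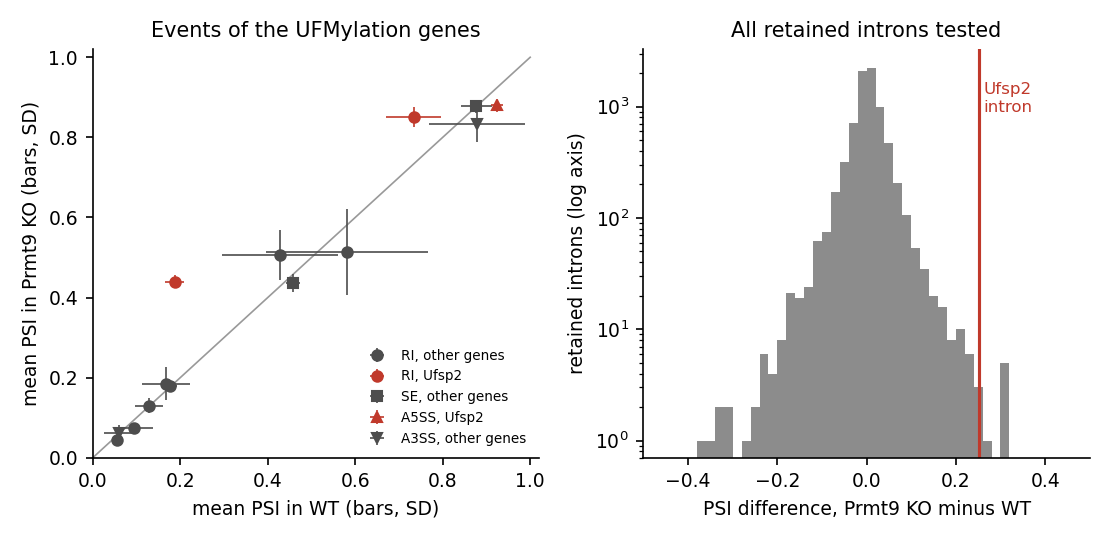
Left, mean PSI in WT (x) and Prmt9 KO (y) of the 14 tested events of the UFMylation genes, with SD over 3 mice as bars and Ufsp2 in red. Right, the number of retained introns (log axis) by PSI difference, KO minus WT, over all 7668 tested, with the 80-base Ufsp2 intron marked at 0.252. The Ufsp2 intron lies far above the diagonal on the left and in the upper tail on the right.

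The retained introns whose PSI over the 6 mice was nearest to that of Ufsp2 were in Cdhr4, Timm10b, Iqcc, Dll3 and BC037034, with root mean square differences of 0.064, 0.076, 0.077, 0.077 and 0.085 over 7667 introns compared. The Cdhr4 intron of 101 bases had a mean PSI of 0.233 in WT and 0.389 in KO, and the Timm10b intron of 2082 bases 0.230 and 0.371. For Iqcc (129 bases) the means were 0.260 and 0.392, for Dll3 (114 bases) 0.223 and 0.342, and for BC037034 (322 bases) 0.289 and 0.422. They were chosen by their PSI in all 6 mice, WT and KO together, so a higher mean in KO follows from the choice. Each of the 5 had a smaller difference between the genotype means than the Ufsp2 intron. None was called in limma, where 0.0% of all events were.

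A test for changed transcript usage within genes (edgeR's diffSpliceDGE with a Simes test, adjusted p below 0.01) called 22 of 13561 genes, 0.162%, and none of the 6 members that could be tested. Ufsp2 had the lowest unadjusted p of the members, 0.077 (adjusted p = 1), while the others had at least 0.79. With the mice paired by their numbers, 12 genes (0.0885%) were called and the adjusted p of Ufsp2 in edgeR was 0.076. Without WT replicate 1 it was 0.0456, where 139 genes (1.01%) were called. Without both mice numbered 1, Ufsp2 was called at an adjusted p of 2.26e-09 in edgeR, as were 229 genes (1.68%), and it was the only member called. The call of Ufsp2 in this test thus depended on the 2 mice.

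The genes that work with the pathway were followed in the same way. In the list of 10 UFMylation partners and substrates, which holds the target Rpl26, 10 of 10 were tested, and 0 were called or had an unadjusted p below 0.05 in edgeR. DESeq2 also called 0 of them. The median log2 fold change was 0.02, from -0.41 for Rpl26 to 0.18 for Cyb5r3, an ER reductase. Rpl26 had 2028, 777 and 771 TPM in WT and 1322, 793 and 788 TPM in KO, so its value rested on WT replicate 1, and without the mice numbered 1 its log2 fold change was 0.04. Cyb5r3 was the 1 gene of the list whose TPM did not overlap, with 65.3, 61.0 and 64.6 TPM in WT and 94.8, 66.1 and 68.7 TPM in KO, where 4.79% of all genes stood higher in KO. Its KO mean was carried by KO replicate 1, and its log2 fold change was 0.10 without the mice numbered 1.

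In the list of 24 genes of other ubiquitin-like systems (NEDD8, SUMO, autophagy, URM1 and ISG15), 24 of 24 were tested, and 0 were called or had an unadjusted p below 0.05 in edgeR, with 0 called in DESeq2. The median log2 fold change was -0.01, from -0.38 for Uba7, the ISG15-activating enzyme, to 0.12 for Atg10, which conjugates ATG12. Without the mice numbered 1, that of Uba7 was -0.20. The TPM of 2 of the 24 genes, Sumo3 and Atg10, stood higher in KO without overlap, and that of 1, Uba7, lower, where 4.79% of all genes stood higher and 1.09% lower. The lowest adjusted p for transcript usage in this list was 0.0263 in edgeR, for the NEDD8-activating enzyme subunit Nae1, and did not pass 0.01.

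Of the 18 genes of ER stress and the unfolded protein response, the response known to follow a loss of UFMylation, 18 were tested and 0 were called by edgeR or DESeq2. The median log2 fold change was -0.06, from -0.33 (SE 0.27) for Sdf2l1, a chaperone cofactor of the ER, to 0.08 (SE 0.23) for Ern1, a sensor of unfolded proteins. Without the mice numbered 1, Sdf2l1 was at -0.35 (SE 0.06, adjusted p = 0.117 in edgeR) and Ern1 at 0.04 (SE 0.06). The 1 gene of the list whose TPM did not overlap, where 1.09% of all genes stood lower in KO, was Atf4, a transcription factor of the stress response. It had 118.03, 129 and 130.3 TPM in WT and 117.96, 115 and 118 TPM in KO, so that WT replicate 1 and KO replicate 1 were almost equal. With all mice 1 of 18 had an unadjusted p below 0.05 in edgeR, namely Creld2. Without the mice numbered 1 there were 9 of 18, all lower in KO, where 16.4% of all genes had such a p and 8.59% were lower with it.

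In the 4 mice left, the median log2 fold change of this list was -0.11, beside -0.00 for all genes, and 16 of the 18 genes were below 0. In the same 4 mice, 6 of the 11 marker lists stood apart by genotype, which groups of so few mice often do without a difference. The gap was small in some of them, such as thalamus markers, with 11.68 and 11.75 TPM in WT and 11.45 and 11.28 TPM in KO. Choroid plexus markers summed to 606 and 1994 TPM in WT and 2320 and 3328 TPM in KO, erythrocyte markers to 4022 and 5978 TPM and to 3100 and 1832 TPM, and their part in the lower values of this list was not tested. Xbp1, a transcription factor of the response, had 96.2 and 98.9 TPM in the WT mice and 81.8 and 82.9 TPM in the KO mice (log2 fold change -0.21, SE 0.04, adjusted p = 0.134 in edgeR). The ER chaperone gene Hspa5 had 343 and 356 TPM in WT and 318 and 310.4 TPM in KO (log2 fold change -0.12, SE 0.04, adjusted p = 0.249 in edgeR). None of the 18 genes passed the adjusted threshold in these mice either. In WT replicate 1 both genes were below the KO mean, at 74.6 TPM for Xbp1 and 173 TPM for Hspa5. KO replicate 1 was low as well, at 74.2 TPM for Xbp1 and 213 TPM for Hspa5.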

How the data were processed

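Polyadenylated hippocampus RNA (stranded libraries, paired reads of 100 bases) was quantified by the authors with kallisto against annotated transcripts, and the deposited files hold expected (estimated) counts and TPM per transcript and a table of gene TPM. The submitters' processing notes name kallisto 0.46.0 and STAR 2.7.1a. Of 118783 transcripts, 116710 matched GENCODE M21 (GRCm38) by identifier and 2073 were left out. Gene TPM was taken from the deposited table, and gene counts were rounded sums of the deposited estimated counts.

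Counts were compared with edgeR 4.0.16 (quasi-likelihood test, TMM, default filter) with Benjamini-Hochberg adjustment, transcript usage with diffSpliceDGE, and splicing events with limma 3.58.1 on log2 ratios of the TPM with and without the sequence (0.1 TPM added). An event was kept where each mouse had 1 TPM or more and the mean PSI of a genotype was 0.05 to 0.95. Alternatives were DESeq2 1.42.0, limma on log2 TPM, other filters and models, and leaving out mice. The fits were tested on simulated data without outlying mice, which does not show how they behave with the mice numbered 1. Reads per junction were not analysed here, so a form without an annotated transcript has no value, and kallisto divides reads that forms share by its model. Sequences came from the GENCODE transcripts, and primers from the study's supplement. The members, gene lists and marker lists were chosen with earlier results of these data known. The difference of the Ufsp2 intron was among these results, so its values, ranks and p-values are a description. Named were the 7 members, Prmt9, the 5 most like introns and, in each list without a call, the genes at both ends of the log2 fold change. Cyb5r3 among genes without overlap, Sumo3, Atf4, Creld2, Nae1, Xbp1 and Hspa5 were named after their values were seen. The mice numbered 1 deviated together from their group means (correlation of 0.704 over 18466 genes), and all numbers were treated as pairs. The mice of numbers 2 and 3 could not be told apart in this way. Their correlations were 0.584 and 0.553 within a number and 0.518 and 0.584 crossed. Positive values follow for any pairing of them when mouse 1 lies far out in both groups. They thus give no ground for pairing numbers 2 and 3, and the sample labels name no pairs.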

Additional observations from a re-analysis of the deposited data

How the results depend on the processing

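With 3 mice per genotype an exact permutation test cannot go below p = 0.1 (0.25 with the replicate block, the pairing by number). The Ufsp2 values are therefore given as sizes and as the separation of the mice. Both are a description, because the difference was known before from these data. Each main Ufsp2 form had at least 1189 estimated counts in every mouse, but these are divided by kallisto between forms that share most of their sequence, and the part of depth was not tested.

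The Ufsp2 intron kept its direction under all alternatives run, with a PSI difference of 0.242 to 0.264 when single mice were left out, 0.241 with 1 TPM added and 0.207 over all Ufsp2 transcripts. The replicate block leaves this mean difference at 0.252 by construction. The coding share of Ufsp2 kept its direction too, at -24.0 to -20.6 points without single mice and -23.8 points with estimated counts. With decay targets counted as coding, the difference shrank to -1.43 points and the groups were no longer apart (exact permutation p = 0.6).

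Among all genes, DESeq2 called 3, with Prmt9 among them, against 0. Without both mice numbered 1, edgeR called 1, which was Prmt9 (adjusted p = 0.0012 in edgeR). Among all transcripts DESeq2 called 110 against 0. For transcript usage, 22 genes became 12 with a gene-level F test, 1 with at least 10 counts in every mouse, 3 with limma on voom weights, 12 with the replicate block, 6 to 139 without single mice and 229 without both mice numbered 1. Of the members, usage of Ufsp2 was called only without both mice numbered 1 (1 gene, adjusted p = 2.26e-09 in edgeR), and with single mice left out its adjusted p ran from 0.0456 to 1. The replicate block changed no call of a member. No event was called under any alternative.

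No member's log2 fold change was called, and most turned direction under some setting. The cause was not tested. On log2 TPM with 0.1 and 1 TPM added, Ufm1 was 0.30 and 0.29, Cdk5rap3 0.056 and 0.055, and Ufsp2 0.027 and 0.026. Without both mice numbered 1, Ufm1 was 0.035, Ufc1 0.070, Ufl1 -0.052, Cdk5rap3 0.066 and Ufsp2 0.067. The log2 fold changes without single mice ranged from -0.12 to 0.12 for Ufm1, -0.65 to 0.35 for Ufc1, -0.060 to 0.059 for Ufl1, -0.32 to 0.32 for Cdk5rap3, -0.44 to 0.21 for Ufsp1 and -0.36 to 0.33 for Ufsp2. Of the small differences in coding share, Ufm1 became 1.16 points and Ufc1 0.0061 points without both mice numbered 1, and Cdk5rap3 0.669 points with decay targets counted as coding. Without single mice they ranged from -1.49 to 0.958 points for Ufc1, -9.67 to 3.54 for Ufl1, -1.15 to 2.77 for Ddrgk1 and -1.02 to 0.632 for Cdk5rap3.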
